A study of Mus musculus with 10 samples.

Results

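The Akr1 family of aldo-keto reductases was followed in pancreatic islets of NZO and C3H mice. Its 10 listed genes (Akr1a1, Akr1b3, Akr1c6, Akr1c12, Akr1c13, Akr1c14, Akr1c18, Akr1c19, Akr1c20 and Akr1c21) were matched by symbol to the array's probe sets, and 9 of them were measured, among 19938 genes in all. Each of the 9 had a single probe set that named no other gene, and no probe set named several Akr1 genes together. No probe set used here is named for Akr1b3, the aldose reductase gene, which was therefore not analysed here. The family was chosen by the measured difference of Akr1c12 between the strains, which had rank 4 when all genes were ordered from the most negative, so the differences between the strains given for the family are descriptions and carry no p.

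NZO/Hl mice are an obese, diabetes-prone inbred strain, and C3HeB/FeJ mice, labelled C3H, were the other inbred strain. The 5 NZO and 5 C3H arrays came from males aged 6 weeks, all of which had eaten a diet with 45% of its energy as fat since weaning at day 21, and their islets had spent a night in medium with 10 mM glucose. The labels name no transgene or drug in either strain, and the strains differ across the whole genome. The array titles carry a pair of animal numbers each, except NZO replicate 4 with a single number and NZO replicate 5 with a range, so most arrays appear to hold pooled animals, although the labels do not state the pooling.

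Aldo-keto reductases of this family are soluble enzymes that use NADPH or NADH to turn aldehyde and ketone groups into alcohols, or run the reaction backwards. Akr1a1 and Akr1b3 act on sugars and other aldehydes. The rodent Akr1c enzymes act mainly on steroid hormones, prostaglandins and related hydroxyl compounds, and their genes lie side by side in a run of duplicated copies. Such copies are alike in sequence, so the copy that a probe set reports is less certain here than for a gene without close relatives.

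RefSeq holds a promoter window of GRCm38.p6 for 8 of the 9 measured genes. The 250 bases before the start of Akr1c12 and of Akr1c13 are shown because these were the most alike windows of the family, while the probe sets of the genes behaved differently between the strains. Both are written 5′ to 3′, with capitals for bases that differ from the other window or have no partner in it. The Akr1c12 window is chr13:4279400-4279649 on the minus strand and the Akr1c13 window is chr13:4190937-4191186 on the plus strand.
Akr1c12: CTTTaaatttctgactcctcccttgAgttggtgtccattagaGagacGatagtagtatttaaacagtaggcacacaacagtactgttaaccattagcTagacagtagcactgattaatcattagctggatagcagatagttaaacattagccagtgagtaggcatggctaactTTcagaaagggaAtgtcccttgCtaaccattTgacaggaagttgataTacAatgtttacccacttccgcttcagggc
Akr1c13: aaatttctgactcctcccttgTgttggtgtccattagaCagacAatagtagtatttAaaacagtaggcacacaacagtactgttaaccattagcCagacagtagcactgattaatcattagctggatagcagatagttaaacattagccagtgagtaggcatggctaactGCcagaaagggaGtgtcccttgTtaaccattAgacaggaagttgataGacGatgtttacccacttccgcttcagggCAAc
In a global alignment, 235 of 254 columns were identical between them (92.5%). The Akr1c19 window matched that of Akr1c13 in 59.0% of columns and that of Akr1c12 in 54.8%, and Akr1c14 matched Akr1c18 in 52.1%. By comparison, the Akr1c12 window matched that of Akr1a1, a member elsewhere in the genome, in 46.4%. It matched those of Akr1c21 (45.4%), Akr1c18 (44.6%), Akr1c6 (42.8%) and Akr1c14 (42.5%) less well. The Akr1a1 window matched that of Akr1c18 in 47.9%. The core of the antioxidant response element, TGACNNNGC on either strand, was in 0 of the 8 windows, and in 10.2% of all 32851 windows of the same length. That says only that these letters are missing from these windows. All windows are those of GRCm38.p6, and the NZO and C3H sequences were not compared here.

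The 10 arrays were similar in brightness, with medians between 6.93 and 7.05 on the log2 scale. Islet markers were bright on all of them, with a mean log2 value of 9 beta cell genes of 10.37 to 11.31 in NZO and 11.18 to 11.37 in C3H. The acinar score, the mean log2 value of 22 measured genes of 26 listed for the enzyme-secreting acinar cells of the exocrine pancreas, was 9.93 to 12.05 in NZO and 8.09 to 8.99 in C3H. It was highest on NZO replicates 4 and 5, at 12.05 and 11.91. Marker means were also higher in NZO for ducts (8.75 to 9.69, against 8.38 to 8.68 in C3H, 8 genes) and, but for NZO replicate 2, for macrophages (7.71 to 8.86, against 7.58 to 7.72 in C3H, 11 genes). The same order, again but for NZO replicate 2, held for stellate cells and fibroblasts (7.96 to 9.32, against 8.09 to 8.38 in C3H, 9 genes) and for endothelial cells (9.32 to 9.79, against 9.31 to 9.66 in C3H, 8 genes). Beta cell markers were lower than on every C3H array on 4 of the 5 NZO arrays. Marker means were lower in NZO for alpha cells (9.90 to 10.09, against 10.24 to 10.27 in C3H, 5 genes) and for delta and PP cells (9.49 to 9.74, against 10.05 to 10.41 in C3H, 6 genes). C3H replicate 4 stood apart with the highest array median, 7.05. In such bulk samples, fewer cells of a type and less RNA per cell cannot be told apart.

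Akr1c12, one of the copies in the run and a close relative of Akr1c13, had far lower values in NZO islets. Its log2 values were 5.99, 5.77, 5.88, 5.49 and 5.54 on NZO replicates 1 to 5, against 8.57, 8.74, 8.72, 8.11 and 8.49 on C3H replicates 1 to 5. The strains were widely separated, with a gap of 2.13 log2 units between the highest NZO array and the lowest C3H array. The mean was 5.73 ± 0.22 in NZO and 8.53 ± 0.25 in C3H (SD, n = 5 each), a log2 difference of -2.79 (SE 0.13). On NZO replicates 4 and 5 the value lay under that array's 25th percentile of all probe sets, and RMA values have no detection call, so the NZO level was not shown to be above background. The log2 difference is therefore one between listed values, and no fold is given. It rests on a single probe set, and whether the NZO sequence differs from its probes was not tested. In the order of all differences, Rab3c (-2.84) stood just before it and Zfp979 (-2.26) just after it.

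**Figure D1:**
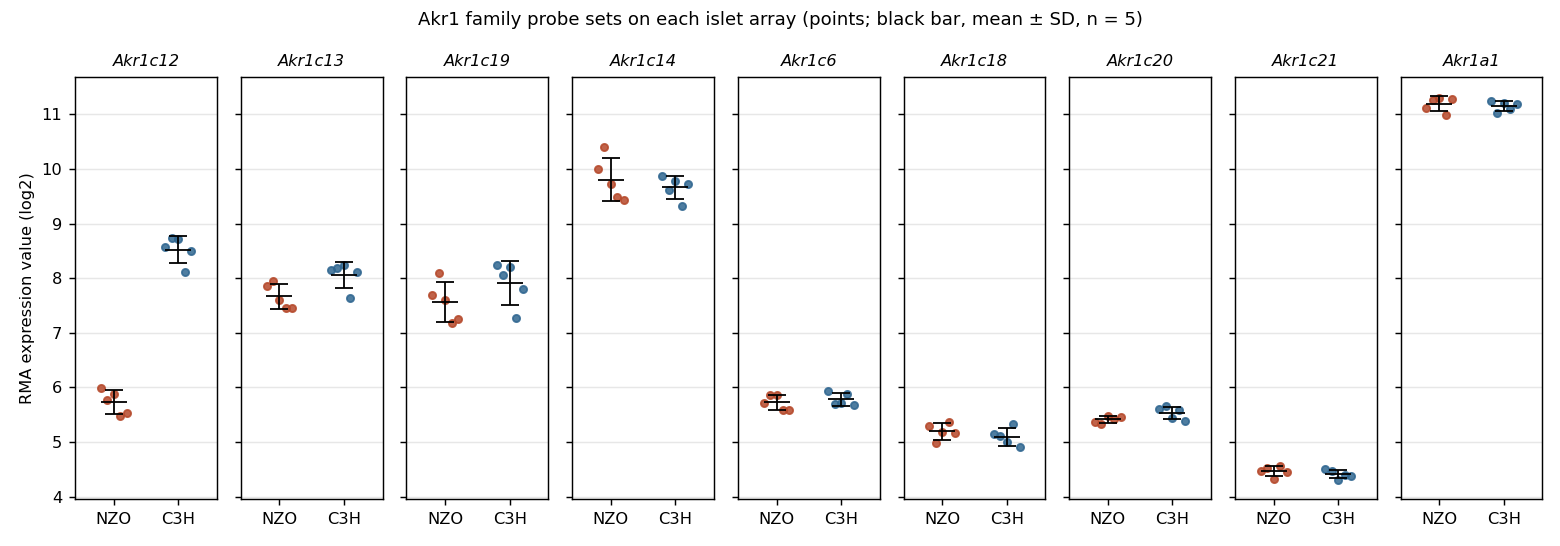
Log2 RMA values of the 9 measured Akr1 genes on each of the 5 NZO (left) and 5 C3H (right) arrays, with the mean and SD as black bars. Only Akr1c12 shows strains that do not overlap, with means of 5.73 in NZO and 8.53 in C3H. Heights of different genes cannot be compared, because they come from different probes.

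The size of the Akr1c12 difference changed little with the arrays used. It was -2.90 to -2.73 when any 1 array was left out and -2.65 (SE 0.13) without NZO replicates 4 and 5. With the acinar score as a covariate beside strain it was -2.40 (SE 0.25).

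Akr1c13, whose promoter window in GRCm38.p6 is nearly the same as that of Akr1c12, did not show such a gap. It measured 7.86, 7.95, 7.61, 7.46 and 7.46 on NZO replicates 1 to 5, against 8.15, 8.18, 8.23, 7.64 and 8.12 on C3H replicates 1 to 5. The strains overlapped through C3H replicate 4 alone, which lay below 2 of the 5 NZO arrays and was well under the other C3H arrays. The means were 7.67 ± 0.23 in NZO and 8.06 ± 0.24 in C3H (SD, n = 5 each), a difference of -0.40 (SE 0.13) that stayed short of the threshold of the fit over all genes. It was -0.51 (SE 0.10) and past that threshold without C3H replicate 4, and -0.47 (SE 0.13) and past it without NZO replicate 2. It also passed with array weights (-0.52) and when only genes above the median of mean values were tested (-0.40), a filter that leaves out Akr1c12. With the acinar score as a covariate the difference was 0.03 (SE 0.24).

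Akr1c19, which lies between Akr1c13 and Akr1c12 in the run, varied widely among arrays of the same strain. Its values were 7.69, 8.09, 7.60, 7.18 and 7.25 on NZO replicates 1 to 5, against 8.25, 8.06, 8.21, 7.27 and 7.80 on C3H replicates 1 to 5. The strains overlapped, with the lowest values on NZO replicates 4 and 5 and on C3H replicate 4. The means were 7.56 ± 0.37 in NZO and 7.92 ± 0.40 in C3H, a difference of -0.36 (SE 0.19). That difference was -0.52 without C3H replicate 4 and -0.12 (SE 0.20) without NZO replicates 4 and 5. It was smaller than the pooled SD of arrays within a strain, 0.39. It was 0.26 (SE 0.37) with the acinar score in the fit. With array weights it was -0.48 (SE 0.15) and past the threshold, the only setting in which it passed.

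Akr1c14, which encodes a hydroxysteroid dehydrogenase that acts on dihydrotestosterone and related steroids, was bright in both strains. It measured 10.01, 10.40, 9.72, 9.49 and 9.43 on NZO replicates 1 to 5, against 9.87, 9.62, 9.78, 9.33 and 9.73 on C3H replicates 1 to 5. The C3H range lay mostly inside the NZO range, and the NZO arrays were more spread. The means were 9.81 ± 0.40 in NZO and 9.67 ± 0.21 in C3H, a difference of 0.14 (SE 0.16). It was 0.37 (SE 0.15) without NZO replicates 4 and 5, -0.01 without NZO replicate 2, and 0.85 (SE 0.28) with the acinar score as a covariate, which was not past the threshold of that fit. Within the strains, its r with the acinar score was -0.66 over 10 arrays.

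Akr1a1, the general aldehyde reductase, which mice also need to make vitamin C, lay near the bright end in both strains. It measured 11.11, 11.27, 11.31, 10.996 and 11.29 on NZO replicates 1 to 5, against 11.25, 11.03, 11.22, 11.11 and 11.19 on C3H replicates 1 to 5. The strains overlapped almost completely, at 11.20 ± 0.14 in NZO and 11.16 ± 0.09 in C3H, a difference of 0.04 (SE 0.08). Its probe set had an SE well under that of Akr1c14 or Akr1c19, and the difference stayed between 0.00 and 0.09 under all 18 alternative settings.

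The 4 other members were dim. Akr1c18, whose enzyme inactivates progesterone in the ovary, was at 4.97 to 5.37 in NZO and 4.90 to 5.33 in C3H. Akr1c20 was at 5.34 to 5.48 in NZO and 5.38 to 5.65 in C3H, and Akr1c21, whose enzyme makes epitestosterone, was at 4.33 to 4.56 in NZO and 4.31 to 4.5 in C3H. These 3 lay under the 25th percentile of probe sets on each of the 10 arrays, so none was shown to be above background in either strain. Akr1c6, which encodes a hydroxysteroid dehydrogenase best known from liver, was at 5.58 to 5.87 in NZO and 5.68 to 5.94 in C3H, and under that percentile on 2 NZO and 2 C3H arrays. The differences were 0.10 for Akr1c18, -0.12 for Akr1c20, 0.05 for Akr1c21 and -0.06 for Akr1c6, each with an SE between 0.07 and 0.10, and the strains overlapped in every one of the 4.

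Of the 9 measured members, 1 passed the threshold of limma's fit over all genes (Benjamini-Hochberg adjusted p below 0.05), lower in NZO, where 10.1% of all genes passed in either direction, 5.47% higher and 4.61% lower. The strains did not overlap in 1 of the 9, again lower in NZO, where 9.14% of all genes did not overlap and 4.18% did so with NZO lower. That 1 gene is Akr1c12, whose difference led to the choice of the family, so nothing is read from these counts. The median difference was -0.06 over the 9 members and -0.01 over the 8 without Akr1c12, beside -0.02 over all genes tested. Among those 8, 4 differences lay below 0 and 4 above it.

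Akr1c13, Akr1c14 and Akr1c19, which lay above the 25th percentile on all 10 arrays, varied together within the strains. After the strain means were subtracted, r over the 10 arrays was 0.94 between Akr1c13 and Akr1c19, 0.90 between Akr1c14 and Akr1c19 and 0.89 between Akr1c13 and Akr1c14. The r of Akr1c12 was 0.85 with Akr1c13, 0.80 with Akr1c19 and 0.62 with Akr1c14, and these values include its 5 NZO values, of which 2 lay under that percentile and none was shown to be above background. Without C3H replicate 4 the first 3 values were 0.88, 0.91 and 0.94, and those of Akr1c12 were 0.70, 0.64 and 0.50. These points share their arrays, whose acinar score and array median also vary, and the part of those in this covariation was not tested. Signal shared between probe sets of alike copies was not tested either. How closely genes outside the family follow Akr1c13, Akr1c14 or Akr1c19 was not looked at. The r of the acinar score within the strains was -0.50 with Akr1c12, -0.54 with Akr1c13 and -0.47 with Akr1c19. The r of Akr1a1 with these 4 genes was lower, at 0.17 to 0.39. The dim run members gave r of both signs with Akr1c13, Akr1c14 and Akr1c19. These were -0.67 to -0.63 for Akr1c18 and -0.46 to -0.23 for Akr1c20. For Akr1c21 they were 0.05 to 0.12, and for Akr1c6 0.13 to 0.47. Akr1c18, Akr1c20 and Akr1c21 were not shown to be above background, so nothing is read from these values. Efhc2, outside the family, had an r of 0.99 with Akr1c12. It was the highest value in a search of far more genes than the family holds, so it is no yardstick for the members.

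**Figure D2:**
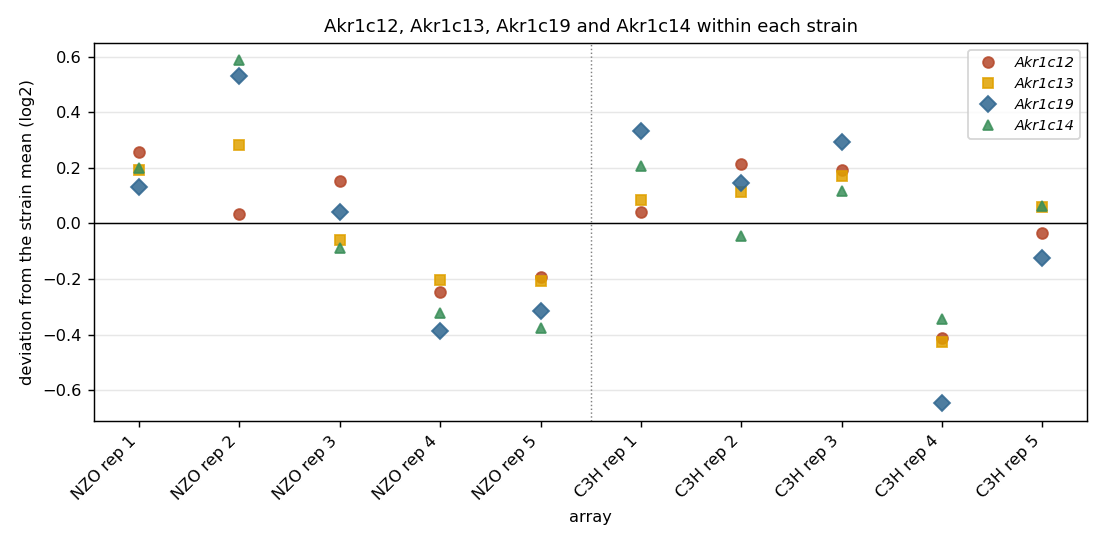
Deviation of Akr1c12, Akr1c13, Akr1c19 and Akr1c14 from their own strain mean (log2) on each NZO array (left of the dotted line) and C3H array. All 4 genes lie below their mean on NZO replicates 4 and 5 and on C3H replicate 4.

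The genes around the run on chromosome 13 were not part of the family list and were tested with the limma fit over all genes. The run holds 8 Akr1c members, and its neighbours were the 9 genes before it, the 10 after it and 1 measured gene inside it, Gm9973. Of these 20 measured neighbours, 1 was higher and 2 were lower in NZO (15%, against 10.1% of all genes), with a median difference of -0.06 against -0.02 over all genes. The gene next to the run, Akr1e1, is itself an aldo-keto reductase, one that reduces the sugar derivative anhydrofructose. It rose to 8.18, 8.01, 8.03, 7.97 and 7.85 on NZO replicates 1 to 5, against 6.94, 6.92, 6.75, 6.63 and 6.95 on C3H replicates 1 to 5. The strains did not overlap, and the mean was 2.25-fold higher in NZO (8.01 ± 0.12 against 6.84 ± 0.14 in C3H, log2 difference 1.17, SE 0.09, limma adjusted p = 1.01e-06). It was 1.35 (SE 0.18, limma adjusted p = 0.00157) once the acinar score entered the fit, and 1.11 to 1.35 over all 17 alternative settings that held the gene.

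On the other side of the run, Asb13, which encodes an ankyrin-repeat protein of ubiquitin ligases, and Ucn3, which encodes the beta cell peptide urocortin, were lower in NZO. Asb13 measured 8.84, 8.78, 8.76, 8.74 and 8.77 on NZO replicates 1 to 5, against 9.96, 9.96, 10.02, 9.96 and 9.97 on C3H replicates 1 to 5. Its spread was very small beside its 2.29-fold lower level in NZO (log2 difference -1.20, SE 0.06, limma adjusted p = 3.62e-08). Ucn3 was 9.07 to 10.34 in NZO and 10.60 to 11.01 in C3H, 2.18-fold lower (log2 difference -1.12, SE 0.19, limma adjusted p = 0.00126). With the acinar score included, Ucn3 was at -0.08 (SE 0.25, limma adjusted p = 1.00), and Asb13 at -1.15 (SE 0.14, limma adjusted p = 0.000860). The genes between Asb13 and Ucn3, among them Net1 (-0.14, SE 0.13) and Tubal3 (-0.15, SE 0.10), did not pass. Past Akr1e1, neither Klf6 (0.41, SE 0.16, limma adjusted p = 0.131) nor Pfkp (-0.39, SE 0.13, limma adjusted p = 0.0755) passed.

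**Figure D3:**
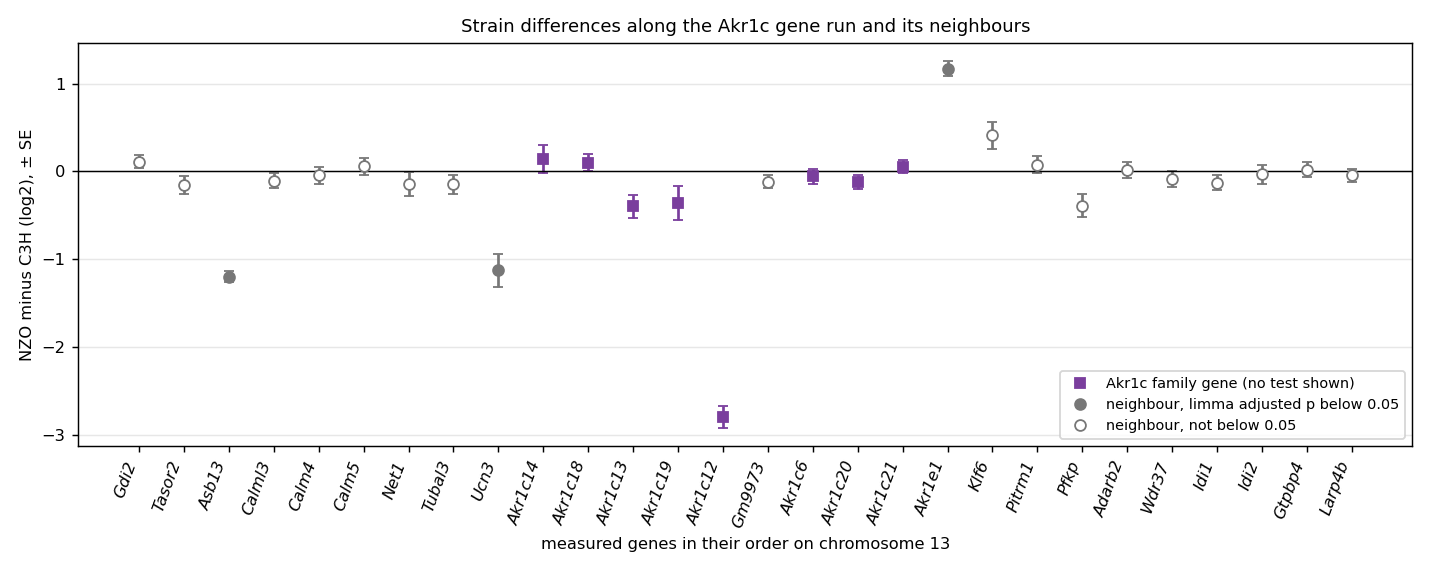
NZO minus C3H difference (log2, ± SE) of each measured gene in its order on chromosome 13. Akr1c genes are squares, all of them filled whatever their values. Neighbours are circles, filled only where the limma adjusted p is below 0.05. Akr1c12 at -2.79, Asb13 at -1.20, Ucn3 at -1.12 and Akr1e1 at 1.17 are the points farthest from 0, and the genes measured beside Akr1c12 and Akr1e1 include Akr1c19 at -0.36 and Klf6 at 0.41.

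Other aldo-keto reductases gave 1 gene higher (Akr1e1, above) and 2 lower of 9 measured, or 33.3%, where 10.1% of all genes passed. The 2 lower genes encode beta subunits of potassium channels that share the aldo-keto reductase fold. Kcnab3 was 7.55 ± 0.44 in NZO and 8.46 ± 0.24 in C3H (-0.91, SE 0.18, limma adjusted p = 0.00438). Kcnab1 differed by -0.30 (SE 0.08, limma adjusted p = 0.0309) and lost its call when any of 5 arrays was left out, as the adjusted p shows for NZO replicate 1 (0.0662) or 3 (0.0724) or C3H replicate 1 (0.0593), 2 (0.0604) or 3 (0.0903). With the acinar score in the fit, Kcnab3 was at -0.04 (SE 0.28). Akr1b8, a relative of aldose reductase, was 8.18 to 10.02 in NZO and 7.94 to 8.60 in C3H, with its highest values on NZO replicates 4 and 5, and did not pass (0.87, SE 0.26, limma adjusted p = 0.0524). Akr1b10 (0.03, SE 0.09), Akr1d1 (-0.03, SE 0.09) and Akr7a5 (0.14, SE 0.07) did not pass either.

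The enzymes of other families that work on carbonyl compounds were measured too. Of 25 carbonyl reductases and aldehyde or alcohol dehydrogenases, 7 were higher in NZO and 0 lower by limma's adjusted p (28%, against 10.1% of all genes), with a median difference of 0.07 against -0.02 over all genes, and 9 were higher and 2 lower at an unadjusted p below 0.05. Aldh1a3, which makes retinoic acid from retinaldehyde, measured 9.64, 9.35, 9.76, 9.55 and 9.85 on NZO replicates 1 to 5, against 7.71, 8.12, 7.91, 7.77 and 8.26 on C3H replicates 1 to 5. All NZO arrays lay above all C3H arrays, a 3.20-fold higher level (1.68, SE 0.12, limma adjusted p = 6.42e-07). Aldh1a7, a close relative of the retinaldehyde dehydrogenase gene Aldh1a1, was 7.35 ± 0.77 in NZO and 5.15 ± 0.35 in C3H, a difference of 2.20 (SE 0.29, limma adjusted p = 0.000194). Its C3H values lay under the 25th percentile of all 5 C3H arrays, so no fold is given, and probes of such close relatives may share signal. Cbr3 (0.53, SE 0.08) and the folate enzyme gene Aldh1l1 (0.59, SE 0.10) were also higher. Once the acinar score entered the fit, 1 gene of the list passed, Aldh1a3, at 1.63 (SE 0.26).

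Of 26 measured genes of steroid metabolism, 6 were higher and 0 lower by limma's adjusted p (23.1%, against 10.1% of all genes, median 0.02), and 7 were higher and 1 lower at an unadjusted p below 0.05. Cyp17a1, the enzyme that leads to androgens, was 7.27 ± 0.19 in NZO and 6.63 ± 0.12 in C3H, 1.56-fold higher (0.64, SE 0.10, limma adjusted p = 0.000652). Sult2b1, which sulfates cholesterol, differed by 0.51 (SE 0.08), and Hsd11b1, which regenerates active glucocorticoid, by 0.75 (SE 0.17, limma adjusted p = 0.0114). Srd5a3 (0.36, SE 0.08), named after the steroid reductases, serves the reduction of polyprenol to dolichol. With the acinar score in the fit, 0 of the 26 passed, although the differences of Cyp17a1 (0.71, SE 0.21), Sult2b1 (0.58, SE 0.17) and Srd5a3 (0.39, SE 0.17) were no smaller than before and their SE was larger, while Hsd11b1 was at 0.13 (SE 0.31). The call of Hsd11b1 ended without NZO replicates 4 and 5 (0.54, SE 0.16, limma adjusted p = 0.0792).

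Of 13 measured prostaglandin enzymes, 3 were higher and 0 lower by limma's adjusted p (23.1%, against 10.1% of all genes, median 0.08), and 5 were higher and 0 lower at an unadjusted p below 0.05. Hpgds, the prostaglandin D synthase first described in blood cells, measured 11.20, 11.06, 11.17, 10.98 and 10.77 on NZO replicates 1 to 5, against 9.95, 10.25, 10.17, 10.14 and 10.23 on C3H replicates 1 to 5. The strains did not overlap, with a 1.85-fold higher level in NZO (0.89, SE 0.09, limma adjusted p = 2.61e-05). Its NZO values were lowest on replicates 4 and 5, where the macrophage marker mean was highest, and its difference was 1.26 (SE 0.17) with the acinar score in the fit. The cyclooxygenase gene Ptgs2 (1.17, SE 0.28, limma adjusted p = 0.0150) was highest on those 2 arrays, at 12.59 and 12.39, and lost its call without them (0.72, SE 0.23, limma adjusted p = 0.101). The macrophage marker mean of those 2 arrays was 8.65 and 8.86, and its part in the Ptgs2 and Hpgds differences was not tested. Without these arrays 1 of the 13 passed. Cbr1, which reduces prostaglandins and other carbonyls, differed by 0.32 (SE 0.08, limma adjusted p = 0.0147). Without NZO replicates 4 and 5 its difference was 0.35 (SE 0.10) and its limma adjusted p = 0.0518. Hpgd, which starts the breakdown of prostaglandins, did not pass (-0.07, SE 0.13, limma adjusted p = 0.831).

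Of 10 measured enzymes of the polyol and glucuronate pathways, which hold the substrates of aldose and aldehyde reductase, 0 were higher and 1 was lower by limma's adjusted p (10%, near the 10.1% of all genes, median -0.07), and 0 and 2 at an unadjusted p below 0.05. The count lower in NZO was 2 without NZO replicate 1, NZO replicate 2 or C3H replicate 4. In those fits 1063, 964 and 1574 of all genes were called lower. The gene called over all arrays, Ugdh, makes the glucuronate donor of conjugation and was 10.12 ± 0.16 in NZO and 10.59 ± 0.12 in C3H (-0.48, SE 0.09, limma adjusted p = 0.00327). Sord, the sorbitol dehydrogenase gene, was not analysed here. Targets of NRF2, the transcription factor of the antioxidant response, which is known to act on several aldo-keto reductase genes, passed in both directions. Of 25 measured, 4 were higher and 4 lower (32%, against 10.1% of all genes, median 0.19), and 11 were higher and 5 lower at an unadjusted p below 0.05. The share of all genes includes dim genes and was not matched to the brightness of this list. The glutathione transferase Gstm1 was 9.12 ± 0.27 in NZO and 10.08 ± 0.16 in C3H (-0.96, SE 0.12, limma adjusted p = 0.000145), and Gstm2 differed by -0.50 (SE 0.09), whereas the exporter gene Abcc4 was higher (0.65, SE 0.12). Nqo1, a commonly used marker of NRF2 activity, was 8.30 to 8.74 in NZO and 8.27 to 8.77 in C3H and did not pass (-0.07, SE 0.11, limma adjusted p = 0.806). With the acinar score in the fit 1 of the 25 passed, and without NZO replicate 2 it was 13.

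**Figure D4:**
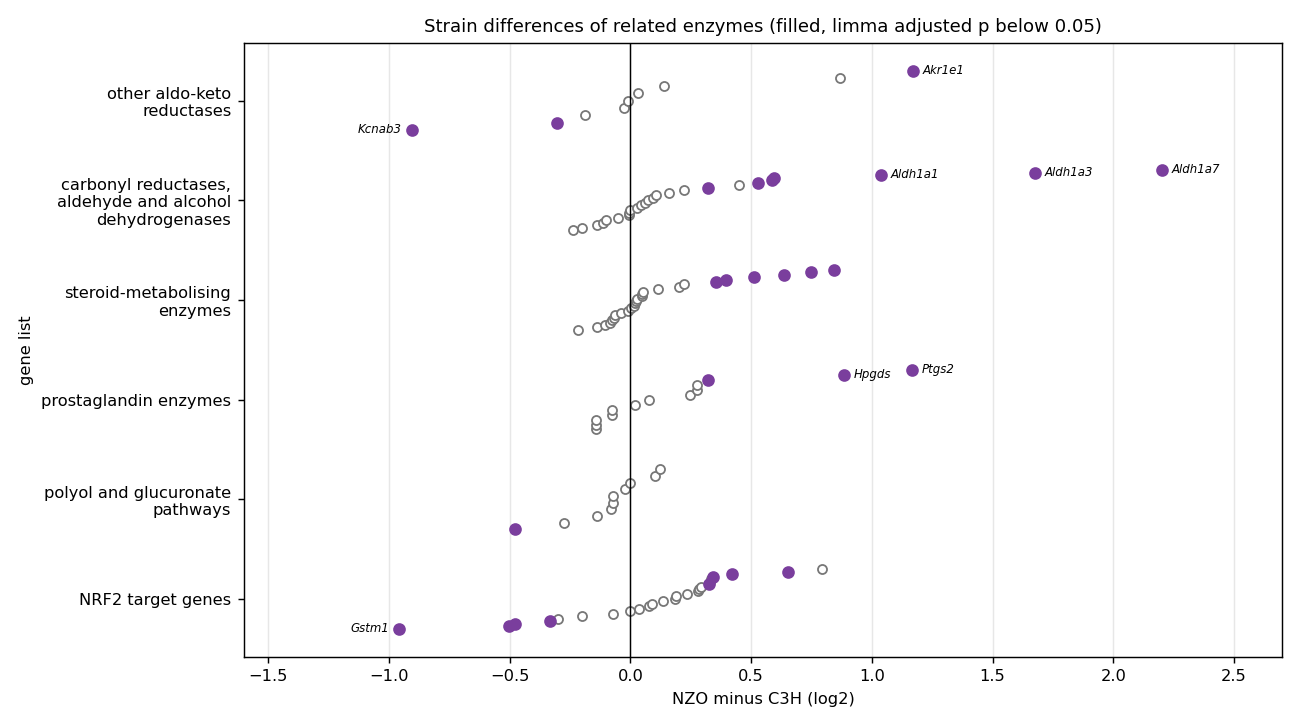
NZO minus C3H difference (log2) of each measured gene in 6 lists of related enzymes, filled where the limma adjusted p is below 0.05, with names for the filled points farthest from 0. In the dehydrogenase, steroid and prostaglandin lists every filled point lies right of 0, and the NRF2 list has 4 on each side.

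The genes most like Akr1c12 across the arrays were found by comparing log2 profiles after each gene's mean over the 10 arrays was subtracted. The smallest root mean square differences from it were those of Rab3c, a secretory vesicle GTPase gene, at 0.22, and the kallikrein Klk1b22 at 0.29, followed by Pianp (0.35), Zfp979 (0.38) and the neurofilament gene Nefm (0.38). The measure picks genes whose strain difference is close to that of Akr1c12, and their differences were -3.00 for Klk1b22 to -2.19 for Nefm. With the strain means subtracted, the closest genes were others. They were Efhc2 (r = 0.99), Cerkl (0.98), Tfb1m (0.97), Hnf4g (0.97) and Brd8 (0.97) over 10 arrays that share their acinar content and brightness, and 0.94 to 0.98 without C3H replicate 4. These genes were picked on the same arrays, and the NZO values of Akr1c12 were not shown to be above background.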

How the data were processed

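Islet RNA (150 ng, integrity number above 8) was hybridised to a whole-transcript Affymetrix mouse array, per the labels' protocols. The deposited log2 values were made by the authors with RMA in Expression Console software (the submitters' processing notes). RMA corrects background, equalises the arrays' distributions and combines the probes of a set, so the values hold no detection call and understate differences near background. No software version or genome build is named in the labels used here.

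Of 35556 probe sets, 21789 carried 1 symbol, 1621 several, and 12146 are not named here. The brightest probe set of each gene was kept, with no filter on dim genes. The shares of all genes that passed therefore include dim genes and were not matched to the brightness of any list. Strains (5 arrays each) were compared with limma 3.58.1 in R 4.3.3, two-sided, Benjamini-Hochberg adjusted over 19938 genes at a threshold of 0.05, in scripts tested on simulated data. Gene order and promoters came from RefSeq tables of GRCm38.p6, and promoters were aligned with Biopython 1.88. The number of arrays limits the precision. Alternatives left out arrays, filtered dim genes, averaged probe sets, centred or weighted arrays, changed the variance prior or added the acinar score as a covariate.

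The members, gene lists and tests were chosen with earlier results of these data known. The genes named from each list were at most 4 called genes with the smallest p, besides Sord, Hpgd and Nqo1, all called neighbours, and the 5 genes closest to Akr1c12 by each of 2 measures. Other genes were named after their values were seen.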

Additional observations from a re-analysis of the deposited data

Results flagged for a closer look

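Among 82 strain groups of 5 arrays checked for a single distant array (9 members and 32 other named genes), 6 had one. Chance flags about 1 in 20 of independent groups. These groups share arrays, and some genes, Efhc2 among them, were picked for following Akr1c12 within the strains, so that rate is no yardstick here. Akr1c13 was 7.64 on C3H replicate 4, against 8.12 to 8.23 on the other C3H arrays. Efhc2 was 7.18 and Nefm 7.94 on that same array, against 8.12 to 8.42 and 8.71 to 8.89 on the others. NZO replicate 2, with the lowest acinar score in NZO, had the lowest Abcc4 value, 9.79 against 10.32 to 10.44, and the highest Gstm1 value, 9.59 against 8.96 to 9.06. Asb13 was 10.02 on C3H replicate 3, against 9.96 to 9.97 on the other C3H arrays.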

How the results depend on the processing

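No paired analysis was possible because the replicate numbers follow the order of the samples and pair none of them. The Akr1c12 difference, which chose the family, was -2.90 to -2.40 over the 17 alternatives that held it, given as a description. The filter at the median of mean values left it out, and the 1 member past the threshold there was Akr1c13, among 1714 genes called. Akr1 members past the threshold numbered 3 with array weights (Akr1c12, Akr1c13 and Akr1c19), and 1 to 2 when any 1 array was left out.

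The 2010 genes called became 206 with the acinar score as a covariate, 1105 without NZO replicates 4 and 5, 4125 with array weights, and 1441 to 2701 without any 1 array. Those higher in NZO numbered 113, 613 and 1815 under the first 3 of these settings and 772 to 1509 under the last. Those lower in NZO numbered 93, 492 and 2310, and 641 (without C3H replicate 3) to 1574 (without C3H replicate 4).

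The acinar covariate left as calls 1 other aldo-keto reductase, 1 carbonyl or aldehyde enzyme, 0 steroid enzymes, 1 prostaglandin enzyme, 0 polyol enzymes and 1 NRF2 target. Array weights gave 11 carbonyl or aldehyde enzymes, 6 prostaglandin enzymes, 2 polyol enzymes, 13 NRF2 targets and 7 neighbours. Without NZO replicates 4 and 5, 1 prostaglandin enzyme was called. The filter at the median called 3 carbonyl or aldehyde enzymes and 2 polyol enzymes, and that at the 25th percentile 2 polyol enzymes. These filters called 1714 and 2071 genes in all, of fewer genes tested. Leaving out 1 array gave 1 to 2 polyol enzymes and 6 to 13 NRF2 targets.

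The sign turned under the acinar covariate for Brd8 (0.30), Cerkl (0.23), Efhc2 (0.20), Hnf4g (0.24) and Ptgs2 (-0.22), and for the members Akr1c6 (0.15), Akr1c13 (0.03), Akr1c18 (-0.10), Akr1c19 (0.26) and Akr1c21 (-0.0037), none of them past the threshold there. It also turned for Brd8 (0.048), Cerkl (0.0092) and Akr1c6 (0.036) without NZO replicates 4 and 5, and for Hpgd (0.020) with array weights. Without NZO replicate 2 it turned for Akr1c14 (-0.0065). The cause was not tested. The acinar score differs between the strains without overlap, so a fit that holds it estimates the strain difference less precisely.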
